A study of Mus musculus with 39 samples.

Results

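The 10 genes described here are Pitpnc1, Lgr6, St6gal1, Smyd4, Smg6, Adamts14, Rbpms, Rin2, Etfbkmt and Tspan18. They are 10 of the 39676 genes in the count table and were selected on their measured levels in the 4 treatment groups, for a rise with tretinoin that was smaller when immune checkpoint therapy (ICT) was given as well. Those levels are therefore given as a description with no test. The choice had no stated cut-off, so there is no edge at which members just inside and just outside could be set side by side. Tests are given only for what the choice did not use, namely tumours of responding against non-responding mice, relations within a treatment group, and other genes.

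RNA was sequenced from whole AB1-HA tumours, a mouse mesothelioma line grown under the skin of BALB/c mice, and each library is 1 tumour. Of 39 tumours, 10 were treated with PBS, 9 with tretinoin (all-trans retinoic acid, 5 mg/kg into the peritoneum daily for 5 doses from day 4), 10 with ICT (100 µg of anti-CTLA-4 and 100 µg of anti-PD-L1 from day 7) and 10 with both, and tumours were taken on day 9. The doses are as the labels give them, and the study's text differs from them and within itself. In 1 place it gives a higher dose for the tumours with tretinoin alone. In another it gives 5 mg/kg, with fewer than 5 doses, for all tumours given tretinoin. The study's methods name PBS with DMSO as the control for tretinoin and PBS as that for ICT. The labels give the control tumours as PBS, so whether they or the ICT tumours received DMSO cannot be told here. All 39 share the tumour line and the host strain, and a single line cannot stand for mesothelioma at large. The study's methods describe mice with 2 tumours for each treatment, of which 1 was resected. In mice given both, the outcome of the tumour left in place labelled 6 of the sequenced tumours as from responders and 4 as from non-responders. Tumour names begin with a digit that differs between treatments, so treatment and name series cannot be told apart.

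Total counts ranged from 14033046 to 37951183 per tumour, with a median of 18548168. Counts of the members in a single tumour ranged from 28 for Tspan18 to 5958 for Rin2, so counting error is largest for Tspan18 and Lgr6. The labelled tissue could be checked only in part, since of the mesothelial markers Wt1 alone was expressed highly enough to be tested and the summed level of Wt1, Upk3b and Lrrn4 ranged from 0.304 to 5.58 CPM, the counts of a gene per 1000000 counts of its library after scaling. AB1-HA tumours are sarcomatoid, and no marker on the list is specific to that form.

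Retinoic acid acts by binding retinoic acid receptors, which sit on DNA as partners of retinoid X receptors and switch on nearby genes when the ligand arrives. Among the genes switched on are those that clear or store retinoids, such as Cyp26b1, whose enzyme oxidises and so inactivates retinoic acid, and Dhrs3, which encodes an enzyme that turns retinal back into retinol. ICT antibodies block inhibitory receptors or ligands on immune cells. The 10 members belong to no single pathway. Lgr6 encodes a receptor for R-spondins, which enhance Wnt signalling; Rin2 encodes an activator of the small GTPase Rab5 on endosomes; Pitpnc1 encodes a phosphatidylinositol transfer protein; Tspan18 encodes a tetraspanin of the cell membrane. St6gal1 encodes the sialyltransferase that caps N-glycans with sialic acid, and Adamts14 a secreted protease that trims procollagen. Smg6 encodes the endonuclease of nonsense-mediated mRNA decay, Rbpms an RNA-binding protein, Smyd4 a SET and MYND domain protein, and Etfbkmt the methyltransferase of the electron transfer flavoprotein beta subunit.

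The members lie on 7 chromosomes of GRCm38, and each is annotated as protein coding. Chromosome 11 carries 3 of them. Smg6 (ENSMUSG00000038290, 74925823 to 75164448) and Smyd4 (ENSMUSG00000018809, 75348433 to 75405705) lie 184 kb apart there, on the same strand, while Pitpnc1 (ENSMUSG00000040430) lies far from both, at 107207892 to 107470699. Chromosome 2 carries Tspan18 (ENSMUSG00000027217, 93201760 to 93334505) and Rin2 (ENSMUSG00000001768, 145675215 to 145887616). The others are Lgr6 (ENSMUSG00000042793) on chromosome 1 at 134983301 to 135105276, Etfbkmt (ENSMUSG00000039958) on chromosome 6 at 149139849 to 149151171, Rbpms (ENSMUSG00000031586) on chromosome 8 at 33782643 to 33929863, Adamts14 (ENSMUSG00000059901) on chromosome 10 at 61197112 to 61273438 and St6gal1 (ENSMUSG00000022885) on chromosome 16 at 23224740 to 23360350.

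RefSeq sequences around annotated starts, from 250 bases before to 50 bases after, were read for 8 of the 10 members in 10 windows (GRCm38.p6), and Tspan18 and Rbpms have no entry. Retinoid receptors bind the hexamer AGGTCA or AGTTCA, usually as a direct repeat. On either strand AGGTCA occurred in 3 of the 10 windows (of Etfbkmt, Rin2 and St6gal1), against 16.3% of all 32851 windows. AGTTCA occurred in 2 of the 10, both of St6gal1, against 13.99%. Direct repeats of AGNTCA spaced by 1, 2 or 5 bases occurred in none of the 10 windows and in 0.219%, 0.107% and 0.204% of all windows. The GC box GGGCGG was found in 6 of the 10 windows (of Adamts14, Etfbkmt, Lgr6, Smg6, Smyd4 and St6gal1) and in 35.7% of all windows. No member window held TATAAA, which occurred in 13.6% of all windows. The Etfbkmt and St6gal1 stretches are printed because they hold the hexamers, which stand in capitals (on the other strand AGGTCA reads as TGACCT and AGTTCA as TGAACT). The Smyd4 stretch is printed because it is the whole gap to the start of a neighbour described below, and there the capitals mark GGGCGG and its complement. All 3 run along the gene's strand and stop before an annotated start. For Etfbkmt and St6gal1 that start lies inside the gene as placed above. A match is a description of these letters only.
Etfbkmt, chr6:149141263-149141512, plus strand: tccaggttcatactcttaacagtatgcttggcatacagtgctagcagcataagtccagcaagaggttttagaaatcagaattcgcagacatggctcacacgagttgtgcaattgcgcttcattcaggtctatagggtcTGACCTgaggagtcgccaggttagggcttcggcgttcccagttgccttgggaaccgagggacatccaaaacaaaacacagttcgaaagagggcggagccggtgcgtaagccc
St6gal1, chr16:23290220-23290469, plus strand, before a start inside the gene: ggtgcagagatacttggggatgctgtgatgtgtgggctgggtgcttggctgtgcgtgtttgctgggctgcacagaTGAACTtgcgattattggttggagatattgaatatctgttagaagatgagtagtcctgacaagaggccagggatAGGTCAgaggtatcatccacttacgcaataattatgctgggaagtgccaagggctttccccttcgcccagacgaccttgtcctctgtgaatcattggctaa
Smyd4, chr11:75348325-75348432, plus strand: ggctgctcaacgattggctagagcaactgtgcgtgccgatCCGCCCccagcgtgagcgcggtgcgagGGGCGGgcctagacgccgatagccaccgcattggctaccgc

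Every tretinoin tumour was above every PBS tumour for all 10 members, which holds for 1.48% of all genes tested and was what the choice looked for. With ICT, 7 of the 10 members had all 10 tretinoin+ICT tumours below all 9 tretinoin tumours, as had 0.396% of all genes. No member had every tretinoin+ICT tumour above every ICT tumour, against 0.275% of all genes. Measured as the log2 fold change with its standard error (SE) from edgeR, the rise over PBS had a median of 0.73 and ranged from 0.43 for Rin2 to 2.51 for Lgr6, while over all genes the median was 0.01. The rise of tretinoin+ICT over ICT had a median of 0.11 and ranged from -0.14 for St6gal1 to 0.98 for Lgr6. On the log2 scale the rise with ICT was 14.98% of that without it at the median of the members. The counts and differences restate the choice.

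**Figure D1:**
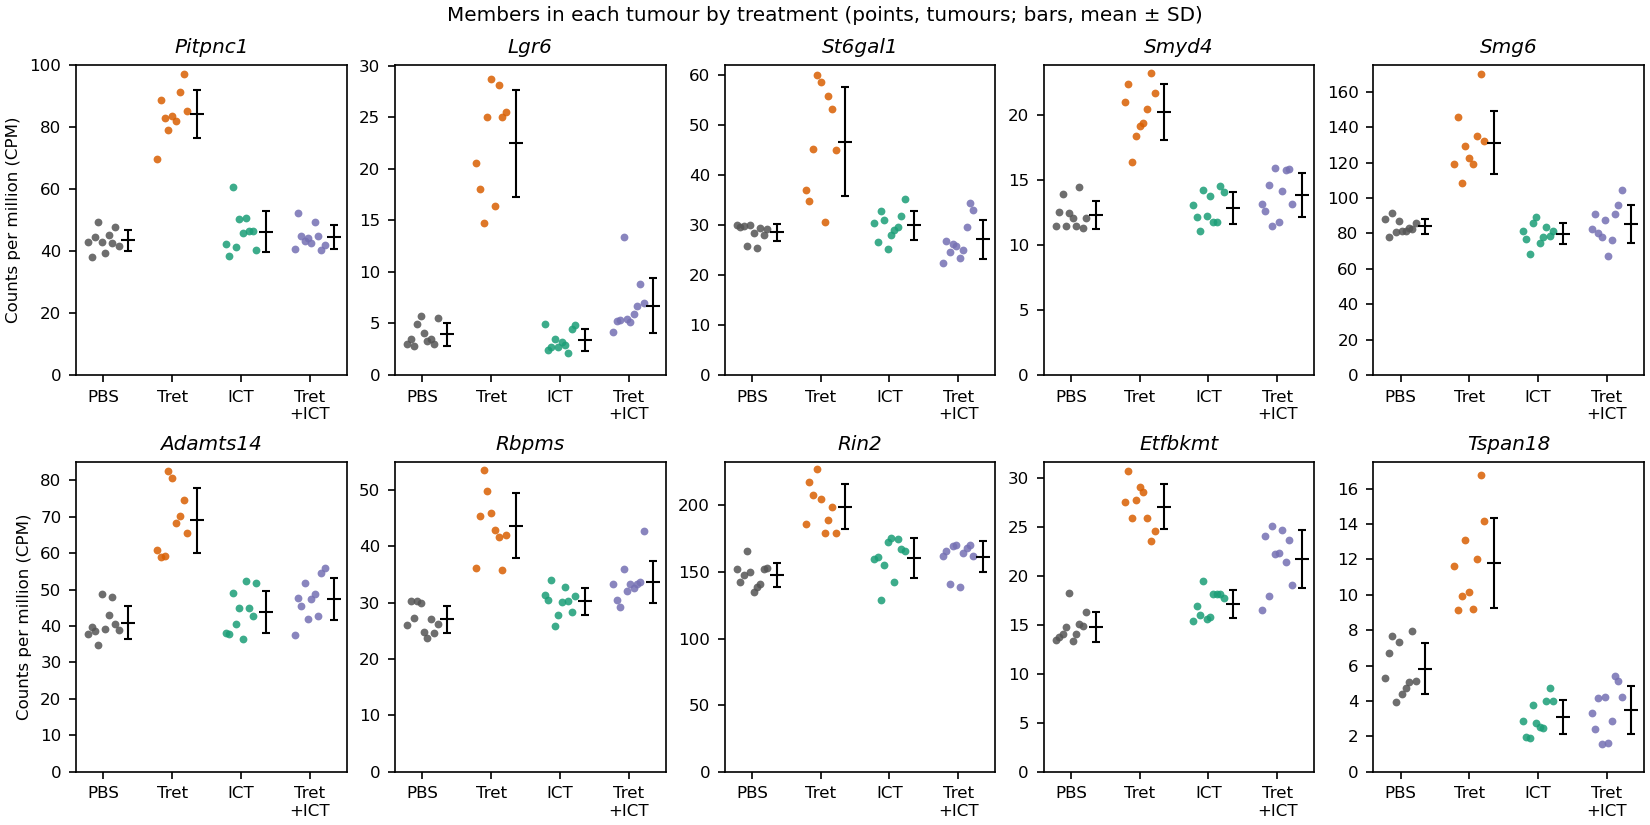
CPM of the 10 members in every tumour (points; 10 PBS, 9 tretinoin, 10 ICT and 10 tretinoin+ICT tumours), with the mean and SD of each treatment as a bar, each panel with its own axis starting at 0. The tretinoin tumours stand above the PBS tumours in every panel, Etfbkmt and Lgr6 lie between the extremes with tretinoin+ICT, and Tspan18 is below its PBS level in most tumours given ICT.

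Among the genes for membrane and signalling proteins, Lgr6 had the widest rise. Its CPM was 2.83 to 5.72 in PBS tumours with a median of 3.47, and 14.7 to 28.7 in tretinoin tumours with a median of 25.003. In ICT tumours it was 2.14 to 4.98 with a median of 3.06, and in tretinoin+ICT tumours 4.20 to 13.3 with a median of 5.67. The tretinoin+ICT tumours lay below all tretinoin tumours, and 9 of 10 were above every ICT tumour. Tretinoin raised the level 5.68-fold without ICT and 1.98-fold with it (log2 fold changes 2.51, SE 0.16, and 0.98, SE 0.20), a difference of -1.52 (SE 0.26). Tumour 24, at 13.3 CPM, was well above the other tretinoin+ICT tumours. In a separate calculation that gave a difference of -1.55 over all tumours, leaving it out made the difference -1.67, the lowest of any left-out tumour.

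Pitpnc1 kept nothing of its rise. Its CPM was 38.1 to 49.3 in PBS tumours (median 42.97), 69.7 to 97.1 with tretinoin (median 83.5), 38.6 to 60.8 with ICT (median 46.1) and 40.3 to 52.4 with both (median 43.7). No tretinoin+ICT tumour reached the lowest tretinoin tumour, and none exceeded every ICT tumour. The log2 fold change with tretinoin was 0.96 (SE 0.06) without ICT and -0.06 (SE 0.07) with it, and the difference was -1.01 (SE 0.09). Rin2, the most abundant member, had the same shape at a smaller size. It had 135 to 166 CPM in PBS tumours (median 149), 180 to 228 with tretinoin (median 199), 129 to 176 with ICT (median 163) and 139 to 171 with both (median 165). Its tretinoin+ICT tumours overlapped the PBS and ICT tumours and lay below all tretinoin tumours, and the log2 fold changes were 0.43 (SE 0.05) and 0.01 (SE 0.06).

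Tspan18 was lower with ICT whether or not tretinoin was given. Its CPM was 3.95 to 7.97 in PBS tumours (median 5.19), 9.14 to 16.7 with tretinoin (median 11.6), 1.93 to 4.75 with ICT (median 2.81) and 1.58 to 5.41 with both (median 3.74). For this gene 7 of 10 ICT tumours lay under the lowest PBS tumour, and all tretinoin+ICT tumours were below all tretinoin tumours. On the log2 scale ICT came with a change of -0.91 (SE 0.17) against PBS and of -1.75 (SE 0.21) on top of tretinoin. The tretinoin rise was 1.02 (SE 0.14) without ICT and 0.17 (SE 0.23) with it, and the difference of -0.85 (SE 0.27) had the widest error of any member.

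St6gal1 and Adamts14 act on glycans and on the matrix. St6gal1 was spread widest after tretinoin, at 30.6 to 60.0 CPM with a median of 45.1, against 25.4 to 30.01 in PBS tumours (median 29.3). It was at 25.1 to 35.1 with ICT (median 30.01) and 22.3 to 34.3 with both (median 26.0). Tumours 71 and 34 marked the ends of the tretinoin range, and the lowest tretinoin tumour was only just above the highest PBS tumour, so 8 of the 10 tretinoin+ICT tumours were below all tretinoin tumours. Its log2 fold change with tretinoin was 0.70 (SE 0.10) without ICT and -0.14 (SE 0.08) with it. Adamts14 was at 34.8 to 48.8 CPM in PBS tumours (median 39.5), 59.0 to 82.6 with tretinoin (median 68.4), 36.4 to 52.5 with ICT (median 43.8) and 37.6 to 55.8 with both (median 47.5). Here the tretinoin tumours were apart from all the others, and the log2 fold changes were 0.75 (SE 0.07) and 0.11 (SE 0.08).

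Smg6 and Rbpms act on RNA. Smg6 was at 77.7 to 91.7 CPM in PBS tumours (median 82.8), 109 to 170 with tretinoin (median 129), 68.6 to 89.3 with ICT (median 79.8) and 66.9 to 104 with both (median 84.8). Its tretinoin+ICT tumours were all below the tretinoin tumours and spread more than the ICT tumours, with 4 of 10 above every ICT tumour. The log2 fold changes with tretinoin were 0.64 (SE 0.06) and 0.10 (SE 0.07). Rbpms was at 23.7 to 30.3 CPM in PBS tumours (median 26.7), 35.7 to 53.5 with tretinoin (median 42.8), 25.9 to 34.04 with ICT (median 30.4) and 29.3 to 42.7 with both (median 33.3). For this gene 6 of 10 ICT tumours were above every PBS tumour, and 8 of 10 tretinoin+ICT tumours were below all tretinoin tumours. Its log2 fold change with tretinoin was 0.69 (SE 0.07) without ICT and 0.16 (SE 0.06) with it.

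Smyd4 and Etfbkmt belong to methyltransferase families. Smyd4 was at 11.3 to 14.5 CPM in PBS tumours (median 12.05), 16.4 to 23.2 with tretinoin (median 20.4), 11.1 to 14.5 with ICT (median 12.6) and 11.4 to 15.9 with both (median 13.6), with log2 fold changes of 0.71 (SE 0.07) and 0.10 (SE 0.07). The tretinoin tumours did not overlap any other treatment. Etfbkmt was at 13.3 to 18.2 CPM in PBS tumours (median 14.4), 23.5 to 30.7 with tretinoin (median 27.6), 15.4 to 19.4 with ICT (median 17.3) and 16.5 to 25.04 with both (median 22.3). It kept the largest part of its rise beside Lgr6, with 7 of 10 tretinoin+ICT tumours above every ICT tumour and 6 below all tretinoin tumours. Its log2 fold changes were 0.87 (SE 0.06) and 0.34 (SE 0.08), so that 39.1% of the log2 rise remained, as against 39.3% for Lgr6 and 1.95% for Rin2. Per kilobase of exon, the mean PBS level ran from 0.574 CPM for Lgr6 and 0.713 for Tspan18 to 9.94 for Smg6 and 13.1 for Rin2.

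No single tretinoin+ICT tumour had tretinoin levels throughout. Between 0 and 2 of the 10 members lay within the range of the tretinoin tumours in any of them, and between 2 and 8 lay within the PBS range. Tumour 44 had 8 members above the PBS range and tumours 21 and 23 had 1. Over the same tumours as the choice, taking each name series of a treatment alone gave differences between the rises of -1.08 to -0.94 for Pitpnc1, -1.64 to -1.48 for Lgr6, -0.49 to -0.33 for Rin2 and -1.10 to -0.70 for Tspan18. Leaving out each of the 39 tumours in turn gave -1.04 to -0.96, -1.67 to -1.48, -0.45 to -0.39 and -0.98 to -0.79 for these members. The sign of these values was part of the choice and is no support for it.

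Genes known to respond to retinoids were taken from a list of 24, of which 20 could be tested in tretinoin against PBS. Of these 20, 10 rose and 1, Rdh10, fell at an adjusted p under 0.05, against 11.5% and 8.95% of all genes. With ICT, 7 of 19 rose, against 1.57% of all genes, and none fell. Cyp26b1 was at 5.48 to 11.7 CPM in PBS tumours (median 8.33), 240 to 384 with tretinoin (median 318), 6.45 to 32.8 with ICT (median 15.9) and 53.2 to 170 with both (median 120). All tretinoin+ICT tumours were above all ICT tumours and below all tretinoin tumours, so Cyp26b1 kept part of its rise. Its log2 fold change was 5.19 (SE 0.13, edgeR adjusted p = 1.99e-16) without ICT and 2.83 (SE 0.26, edgeR adjusted p = 2.07e-06) with it, and the difference of -2.36 passed (edgeR adjusted p = 5.87e-06). ICT alone raised it by 1.08 on the log2 scale (edgeR adjusted p = 0.00527). Dhrs3 rose by 2.66 and 1.48, and its difference of -1.18 passed too (edgeR adjusted p = 3.37e-07).

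Of the 20 genes tested from the list, Cyp26b1 and Dhrs3 were those whose rise differed with ICT in edgeR, a test that 0.307% of all genes passed. Nrip1, a nuclear receptor corepressor, rose by 1.64 and 1.30, a difference of -0.34 (edgeR adjusted p = 0.325). Rarg, a retinoic acid receptor, rose by 0.94 and 0.56, a difference of -0.37 (edgeR adjusted p = 0.143), and Crabp2, a retinoic acid binding protein, rose by 0.66 and 0.55 (difference -0.12, edgeR adjusted p = 0.800). A p that misses the threshold does not show that the rises were equal. As a share of the log2 rise without ICT, that with ICT was 40.5% for Stra6, a retinol transporter, and 54.6% for Cyp26b1. It was 55.5% for Dhrs3, 60.2% for Rarg, 65.3% for Cd38, 73.1% for Tgm2, 79.1% for Nrip1 and 82.7% for Crabp2. Among the members it ran up to 39.3%. Stra6 was thus close to Lgr6 and Etfbkmt, with 1.19 without ICT (edgeR adjusted p = 3.43e-05) and 0.48 with it (edgeR adjusted p = 0.262). Aldh1a2 went the other way, with 0.65 without ICT (edgeR adjusted p = 0.0424) and 0.95 with it (edgeR adjusted p = 0.133). Over the 1618 other genes that rose with tretinoin alone and could be tested with ICT the median share was 52.5% (lower quartile 29.5%). Selecting genes for a rise in 1 comparison lowers their share in the other, and the members were selected for a low share.

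**Figure D2:**
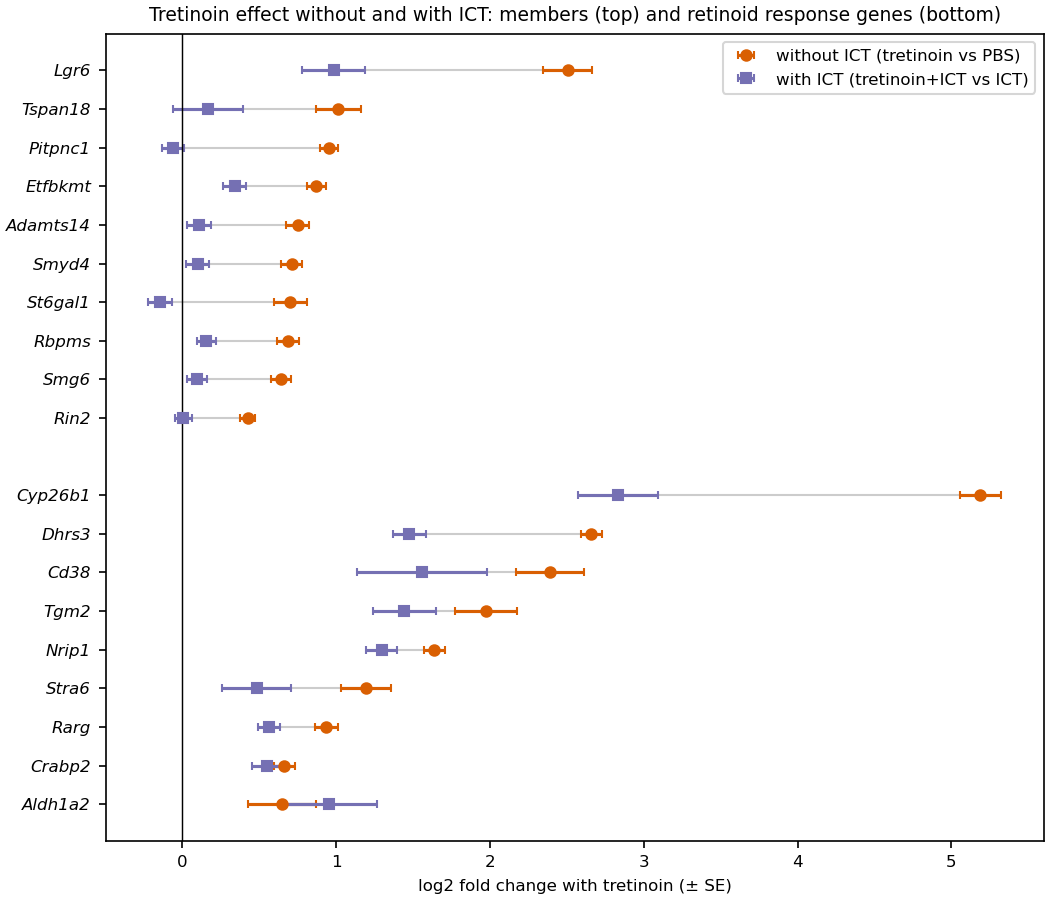
The log2 fold change with tretinoin, with its SE, without ICT (circles, tretinoin against PBS) and with ICT (squares, tretinoin+ICT against ICT), for the 10 members above and the 9 genes of the retinoid list that rose with tretinoin alone and were tested in both below. The squares of 8 members lie between -0.14 and 0.17, whereas Cyp26b1 falls from 5.19 to 2.83 and Crabp2 moves from 0.66 to 0.55.

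**Figure D3:**
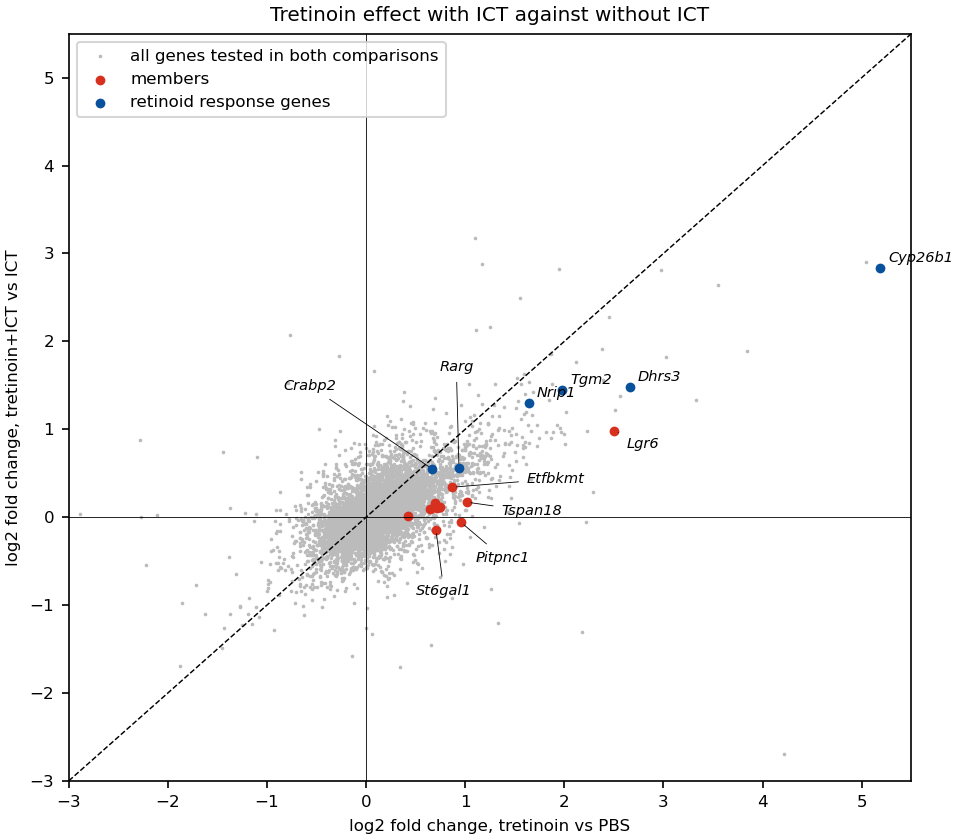
The log2 fold change of tretinoin+ICT against ICT plotted on that of tretinoin against PBS for the 14046 genes tested in both (grey; 4 lie outside the axes), with the 10 members in red, 6 retinoid response genes in blue and the line of equal change dashed. The members lie under the line and near 0 on the vertical axis, apart from Lgr6 at 0.98 and Etfbkmt at 0.34.

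Closest relatives of the members were looked at from lists of their families and pathways. Of 69 relatives tested in tretinoin against PBS, 8 were higher and 7 lower at an adjusted p under 0.05, against 11.5% and 8.95% of all genes, and with ICT 1 of 69 was higher and 2 lower, against 1.99% of all genes that passed in either direction. None of 70 differed in its tretinoin effect between the presence and absence of ICT (0 by edgeR, against 0.307% of all genes). Pitpna and Pitpnb, relatives of Pitpnc1, had log2 fold changes of 0.04 and -0.09 with tretinoin (edgeR adjusted p = 0.509 and 0.118). Lgr4, which binds the same ligands as Lgr6, had 0.09 (edgeR adjusted p = 0.388). Lef1, a transcription factor of the Wnt pathway, rose by 0.99 (edgeR adjusted p = 0.00108), while Axin2, a target and inhibitor of that pathway, fell by 0.44 without ICT (edgeR adjusted p = 0.000519) and by 0.32 with it (edgeR adjusted p = 0.0467). Of the same list, Tcf7 rose by 0.24 and Znrf3 fell by 0.26 with tretinoin (edgeR adjusted p = 0.0274 and 0.0138). Among tumours of the same treatment, Lef1 was higher where leukocyte markers were higher (edgeR adjusted p = 3.465e-07), as were 25.5% of all genes.

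Of the 9 other genes of nonsense-mediated decay, none passed in any of the treatment comparisons, and their log2 fold changes with tretinoin ran from -0.09 to 0.09, against 0.64 for Smg6. Adamts1, a protease that cleaves proteoglycans, fell by 0.75 without ICT (edgeR adjusted p = 3.06e-09) and by 0.84 with it (edgeR adjusted p = 0.00012), opposite to Adamts14. Rin3 and Rinl rose with tretinoin by 0.55 and 0.43 (edgeR adjusted p = 0.0150 and 0.0144), like Rin2, and also with ICT alone by 0.65 and 0.59 (edgeR adjusted p = 0.00462 and 0.0189). Rin3 with ICT had a tretinoin log2 fold change of 0.57 (edgeR adjusted p = 0.0967). Rbpms2 had -0.32 with tretinoin (edgeR adjusted p = 0.0684). Smyd2 had -0.05 (edgeR adjusted p = 0.644). Among the partners of Etfbkmt, Etfb, which encodes its substrate, had -0.29 (edgeR adjusted p = 0.0591), and Etfa fell by 0.13 (edgeR adjusted p = 0.0380). Of 13 sialyltransferases tested beside St6gal1, 2 were higher and 1 lower with tretinoin, against 11.5% and 8.95% of all genes. The lower one, St8sia6, fell by 0.75 (edgeR adjusted p = 0.0112). Among 19 tetraspanins tested beside Tspan18, 1 was higher and 2 lower with tretinoin, against the same shares of all genes. With ICT, Tspan7 rose by 0.49 (edgeR adjusted p = 0.0185).

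Genes within 100 kb of a member were counted as neighbours. Of 105 annotated, 78 were in the table and 40 were tested in tretinoin against PBS, of which 15 rose and 1 fell, against 11.5% and 8.95% of all genes. With ICT 4 of 39 rose, against 1.57% of all genes. In tretinoin+ICT against tretinoin tumours 11 of 41 were lower and 2 higher, against 9.01% and 12.3% of all genes. None of 43 passed the test of the difference in edgeR, which 0.307% of all genes passed, so a count of 0 is close to that share. Hic1, a transcriptional repressor whose 3′ end lies 117 bp from that of Smg6 on the other strand, was at 61.9 to 101 CPM in PBS tumours, 156 to 333 with tretinoin, 32.2 to 113 with ICT and 88.2 to 214 with both. Its rise was 1.53 without ICT (edgeR adjusted p = 5.93e-08) and 1.32 with it (edgeR adjusted p = 0.000181), so 86.1% of its log2 rise remained, against 15.1% for Smg6. The transcript 1700016P03Rik, on the strand of Smg6, rose by 1.59 and 1.63 (edgeR adjusted p = 5.47e-06 and 0.000122). Srr shares exonic bases with Smg6 on the other strand and rose by 0.39 (edgeR adjusted p = 7.86e-05), with 0.20 when ICT was given (edgeR adjusted p = 0.112). Whether counting used strand is not given in the sources used here, so reads of Smg6 and Srr cannot be told apart in the shared exons, nor those of St6gal1 and BC106179.

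Rpa1, which encodes the large subunit of replication protein A, starts 108 bases from Smyd4 and is read away from it, across the Smyd4 stretch printed above. It rose by 0.32 with tretinoin (edgeR adjusted p = 0.00045) and had -0.02 with ICT (edgeR adjusted p = 0.908), and the difference of -0.34 did not pass (edgeR adjusted p = 0.111). Its levels overlapped, at 135 to 163 CPM in PBS tumours, 139 to 206 with tretinoin, 103 to 155 with ICT and 117 to 162 with both. Trp53i11, whose 3′ end abuts that of Tspan18, rose by 0.63 and 0.52 (edgeR adjusted p = 0.000185 and 0.00711), so the gene next to Tspan18 kept 83.8% of its log2 rise. Gsr, glutathione reductase, 84480 bp from Rbpms, rose by 0.51 (edgeR adjusted p = 1.91e-06) and had 0.16 with ICT (edgeR adjusted p = 0.221), a difference of -0.35 (edgeR adjusted p = 0.0820). Ppp1r12b near Lgr6 rose by 0.65 (edgeR adjusted p = 4.87e-06) and had 0.25 with ICT (edgeR adjusted p = 0.156).

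**Figure D4:**
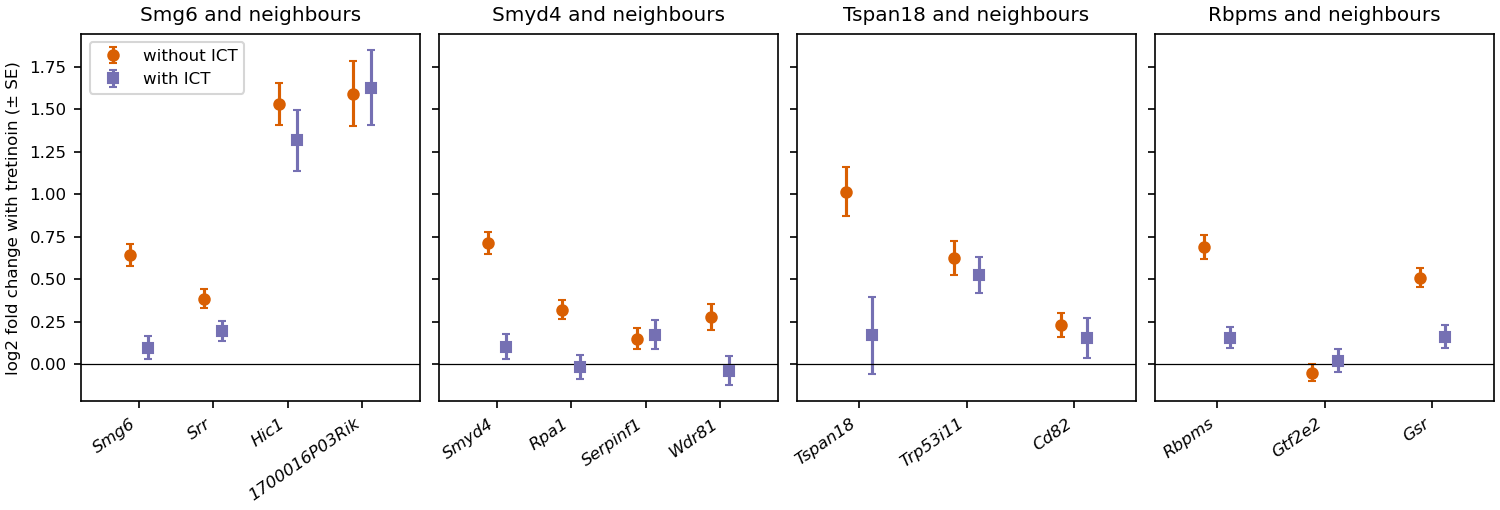
The log2 fold change with tretinoin, with its SE, without ICT (circles) and with ICT (squares) for 4 members and 2 or 3 of the genes beside each. Smg6 falls from 0.64 to 0.10 while Hic1 goes from 1.53 to 1.32, and Tspan18 falls from 1.02 to 0.17 while Trp53i11 goes from 0.63 to 0.52.

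Likeness to the members was measured as Pearson's r over the 39 tumours between a gene's log2 CPM and the mean of the scaled log2 CPM of the 10 members, and is a description, since tumours of 4 treatments are pooled. Smad3, a mediator of TGF-beta signalling, came first with r = 0.926, followed by Ddx25 (0.910), Camk2n1 (0.902), Epn2 (0.884), Hoxb3 (0.880), Ttyh2 (0.879), 4833418N02Rik (0.879), Rarg (0.876), B130024G19Rik (0.871) and Nr2f2 (0.864). After each treatment's mean was subtracted the r values fell to between 0.253 for Nr2f2 and 0.674 for Epn2. Smad3 had log2 fold changes of 0.81 without ICT and 0.29 with it, and Epn2 of 0.91 and 0.42. Among the members themselves, the 45 pairwise correlations after subtraction of the treatment means ranged from -0.387 (Smyd4 and Rbpms) to 0.643 (Smyd4 and Tspan18) with a median of 0.142, and 33 of the 45 were above 0. No such value was taken for pairs of other genes.

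The tumours from responders and non-responders to tretinoin+ICT allowed a test that the choice had not used. No member passed, with log2 fold changes between -0.46 and 0.30 and edgeR adjusted p between 0.336 and 0.954, and none had an unadjusted p under 0.05. Of all 14604 genes 0% passed in edgeR, 3302 had an unadjusted p under 0.05, and DESeq2 called 157 with a log2 fold change of at least 1. Without responder tumour 43, edgeR called 205 genes, again counting only log2 differences of 1 or more in either direction. The members' differences over all 10 tumours were smaller than that minimum, so this count cannot decide whether a member differed. Tspan18 was at 1.58 to 5.41 CPM in the 6 responder tumours with a median of 2.63, and at 3.30, 4.18, 4.24 and 5.12 in the 4 non-responder tumours. The groups overlapped, and the log2 difference was -0.46 with a 95% interval of -1.11 to 0.19. Lgr6 had 5.12 to 13.3 CPM in responders with a median of 6.32, and 4.20, 5.34, 5.405 and 8.81 in non-responders, a log2 difference of 0.30 with an interval of -0.27 to 0.87. For Pitpnc1 the interval was -0.03 to 0.28, and for Smg6 -0.24 to 0.21. With 6 and 4 tumours these intervals still hold differences of some size for Tspan18 and Lgr6.

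Whole tumours hold many cell types, and in such samples fewer cells of a type and less RNA per cell cannot be told apart. The summed level of 5 leukocyte markers (Ptprc, Cd53, Laptm5, Coro1a and Lcp1) was 1084 to 1930 CPM in PBS tumours, 1138 to 2158 with tretinoin, 1106 to 3274 with ICT and 1490 to 3072 with both. All 5 were higher in tretinoin+ICT than in tretinoin tumours, and 4 of 5 in ICT than in PBS tumours, against 12.3% and 14.1% of all genes. The 4 neutrophil markers also were higher with ICT, with medians of 1.19 without and 1.61 with tretinoin on the log2 scale. All 5 macrophage markers were higher in ICT than in PBS tumours and 2 in tretinoin+ICT than in tretinoin tumours. Of 3 fibroblast and pericyte markers 2 fell with ICT alone and 3 on top of tretinoin, against 7.15% and 9.01% of all genes, and 1 of 2 Schwann cell markers tested fell in the latter. The skeletal muscle, keratinocyte, adipocyte, T cell and B cell lists had no marker past the threshold in any treatment comparison.

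Some markers moved in the comparison in which the members rose. With tretinoin against PBS, 3 of 5 macrophage markers were higher (C1qa, C1qb and C1qc, by 0.45, 0.49 and 0.56 on the log2 scale), as was 1 of 5 leukocyte markers (Laptm5, 0.34). So were the mesothelial marker Wt1 (1.12) and 2 of 5 endothelial markers (Pecam1, 0.28, and Emcn, 0.40). Their edgeR adjusted p lay between 0.00277 and 0.0405, and 11.5% of all genes were higher. Wt1 was higher with ICT too, by 1.40 against PBS and by 1.27 on top of tretinoin (edgeR adjusted p = 0.00443 and 0.0250). Emcn, an endothelial sialomucin, also was lower in tretinoin+ICT than in tretinoin tumours (log2 difference -0.28, edgeR adjusted p = 0.0494). Kdr, a VEGF receptor, fell by 0.42 with ICT alone and by 0.61 on top of tretinoin (edgeR adjusted p = 0.0040 and 0.0229). The summed level of the 5 endothelial markers was 232 to 286 CPM in PBS tumours, 264 to 376 with tretinoin, 232 to 272 with ICT and 257 to 324 with both. None of the markers passed the test of the difference of tretinoin effects. The part of these cell types in the members' values was not tested.

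With the mean log2 CPM of the leukocyte markers in the fit, the difference between the rises was -1.02 for Pitpnc1, -1.48 for Lgr6, -0.84 for St6gal1 and -0.83 for Tspan18, beside -1.01, -1.52, -0.85 and -0.85 without it. The leukocyte markers' own tretinoin effect differed little with ICT (median difference 0.0062 on the log2 scale), so this covariate had little to move, and the part of leukocytes in the members' values was not tested.

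Within treatments the members went with the leukocyte score in different directions. The slope is the change in log2 expression for each log2 unit of the score among tumours of the same treatment, and 52.1% of all genes passed for it. In all 4 members passed, 3 as lower and 1 as higher, against 26.6% and 25.5% of all genes. Tspan18 had -0.84 (SE 0.16, edgeR adjusted p = 4.05e-05), Smyd4 -0.29 (SE 0.06, edgeR adjusted p = 8.09e-05) and Smg6 -0.26 (SE 0.06, edgeR adjusted p = 0.000219), so they were lower in tumours with more leukocyte RNA. Pitpnc1 had 0.21 (SE 0.06, edgeR adjusted p = 0.00392) and was higher in them. St6gal1 (-0.20, edgeR adjusted p = 0.0653) and Rbpms (0.15, edgeR adjusted p = 0.0556) missed the threshold, as did Lgr6, Adamts14, Rin2 and Etfbkmt. The share of members that passed was below that of all genes. The slope on Cyp26b1 within treatments, for which 35.4% of all genes passed, passed for Pitpnc1 alone (0.13, SE 0.05, edgeR adjusted p = 0.0258). Pitpnc1 no longer passed with the leukocyte score in the same fit (edgeR adjusted p = 0.762) or over the 19 tretinoin-treated tumours (edgeR adjusted p = 0.756). In these fits only 1 and 4 of all genes passed, so the lost call is not particular to Pitpnc1.

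**Figure D5:**
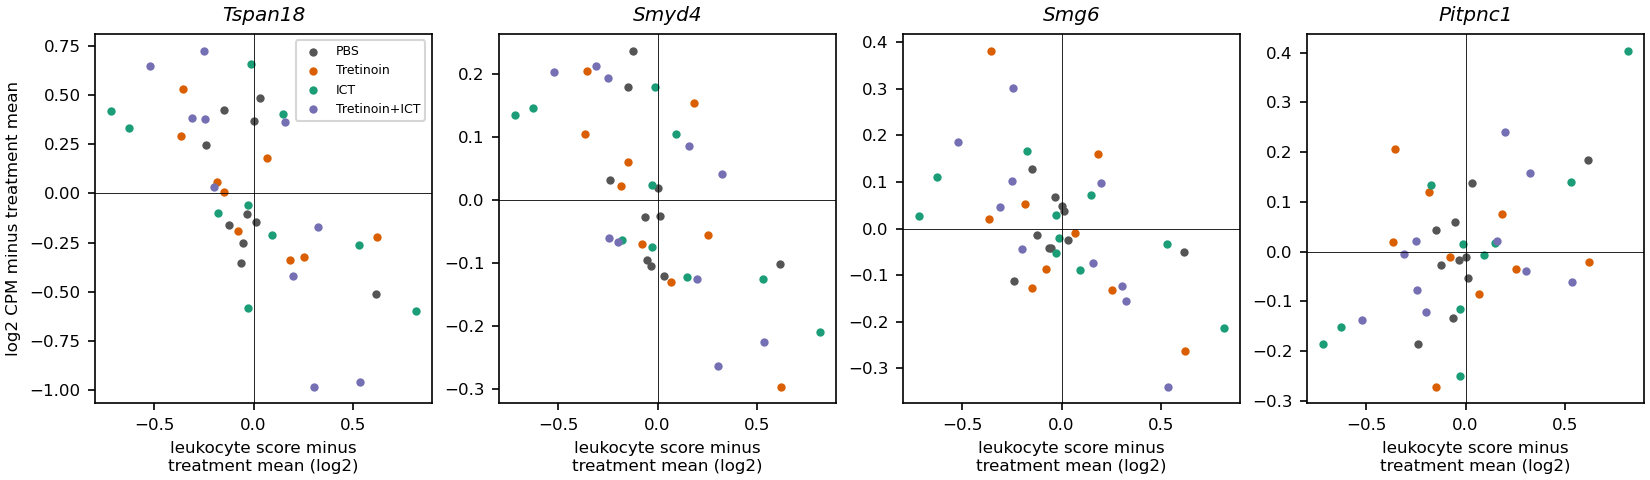
The log2 CPM of the 4 members that passed against the leukocyte score (mean log2 CPM of 5 markers), both after subtraction of the treatment mean, with 1 point for each of 39 tumours coloured by treatment. Tspan18, Smyd4 and Smg6 slope down (-0.84, -0.29 and -0.26) and Pitpnc1 slopes up (0.21).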

How the data were processed

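Data are gene counts of 39 tumours. The authors deposited raw counts, made per the labels and methods from 100 base single-end reads with bcl2fastq 2.20.0.422, HISAT2 2.0.4 and SummariseOverlaps against a genome named mm11; strand setting and multi-mapped reads are not given in the sources used here. Members were found by symbol, and placed by Ensembl ID without version in GENCODE M21 (GRCm38). The 10 members, lists and tests were chosen with earlier results of these data known.

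Genes passing filterByExpr were scaled by TMM and tested with edgeR 4.0.16 (quasi-likelihood, robust, R 4.3.3), pairwise by treatment, over all 39 tumours for the difference of tretinoin effects and for slopes within treatments, and between responders and non-responders. P-values were adjusted by Benjamini-Hochberg over all genes. SE is the log2 fold change over the root of F, and 95% intervals are normal. CPM used TMM over all tumours (log2 with a prior count of 2). Alternatives were DESeq2 1.42.0, its size factors, other filters, 1 joint fit, left-out tumours and name series. Scripts were tested on simulated data. Named genes were the members, up to 4 passing genes a list with the closest relatives, the 10 most alike, and genes within 100 kb. Total counts (14033046 to 37951183) limit precision for Lgr6 and Tspan18. No column of the table was left out. P-values weigh a difference or slope against the spread between tumours.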

Additional observations from a re-analysis of the deposited data

Results flagged for a closer look

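Among 60 sets of values (10 members in 4 treatments and 2 response groups), 2 had a tumour that stood apart by Dixon's test at 95%, fewer than the 1 in 20 that chance alone would flag. Lgr6 in responder tumour 24 was at 13.3 CPM, and the other 5 responder tumours were at 5.12 to 7.03 CPM. Rin2 in responder tumour 41 was at 139 CPM, and the others were at 162 to 169 CPM.

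Of all genes tested, 46 passed the test of the difference of tretinoin effects in edgeR. The members were among the genes tested, and their own outcome is not given because they were selected on this difference. Cyp26b1 and Dhrs3 were the 2 genes of the retinoid list that passed. The log2 rise of Cyp26b1 was smaller with ICT, the difference being -2.36 (edgeR adjusted p = 5.87e-06), and that of Dhrs3 was also smaller, with a difference of -1.18 (edgeR adjusted p = 3.37e-07). Both rose with and without ICT.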

How the results depend on the processing

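Counts over all genes and the members' slopes on Cyp26b1 depended on the processing. Without a fold minimum, edgeR called 2929 genes in tretinoin against PBS, 283 in tretinoin+ICT against ICT, 3007 in ICT against PBS and 3074 in tretinoin+ICT against tretinoin, where a log2 fold change of at least 1 left 232, 56, 332 and 300. DESeq2 called 364, 137 and 479 in the first, second and last of these, 85 for the difference of tretinoin effects (46 in edgeR) and 157 between responders and non-responders (0 in edgeR). In tretinoin+ICT against ICT, a minimum of 10 counts in every tumour left 31 and 1 fit over all tumours gave 101. The difference of tretinoin effects had 9 genes with an absolute log2 value of at least 1, 29 without a low-count filter and 201 with the leukocyte score as a covariate, which was chosen after seeing the data. Slopes on Cyp26b1 passed for 5304 genes, for 2397 on Dhrs3 in its place, for 1 with the leukocyte score in the same fit and for 4 over the tretinoin-treated tumours; the cause was not tested.

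Between responders and non-responders, leaving out 1 tumour at a time gave 0 to 205 genes, with 205 without tumour 43 and 1 without tumour 23. These counts hold only genes whose log2 difference was 1 or more in either direction. Members' values near 0 changed sign without passing. St6gal1 ran from -0.040 to 0.19 with 1 tumour left out and was -0.028 with name series in the fit, Smg6 ran from -0.090 to 0.044, and Rin2 from -0.062 to 0.065 and was -0.0044 without a low-count filter. Slopes on Cyp26b1 turned positive for Smyd4 (0.092), Smg6 (0.12), Rin2 (0.013) and Tspan18 (0.18) with the leukocyte score in the fit, for Smg6 (0.046) and Rin2 (0.075) over the tretinoin-treated tumours and for Rin2 (0.13) and Tspan18 (0.022) on Dhrs3. With Dhrs3, the slopes of Adamts14 and Rbpms passed and that of Pitpnc1 did not. The leukocyte slope of Etfbkmt was -0.020 with Cyp26b1 in the fit, where Pitpnc1 no longer passed and St6gal1 did; the slope of Rbpms passed with DESeq2's size factors and with at least 10 counts in every tumour. The members' difference between the rises, on which they were selected, moved by less than the spread between tumours in all 80 settings with 1 name series taken alone. Each name series is a part of the tumours used for the choice, so this is no support for it.

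No paired analysis was possible because the tumour numbers in the labels are not shared between treatments.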
